A study of Glycine max with 20 samples.

Results

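Leaf transcripts of soybean (Glycine max) 8 h after aphid infestation were compared with those 4 h after infestation, over 2 near-isogenic lines. The comparison rests on 8 of the 20 libraries of the study, chosen by the time in their names: 4 libraries at 8 h and 4 at 4 h, each time with 2 biological replicates of the line called W and 2 of the line called BC in the count table. All 8 came from infested leaves. The labels name 1 line rag2 (susceptible to aphids) and the other Rag2 (resistant), but neither the labels nor the table pair these names with W and BC, so no result is given relative to resistance. Such lines are bred to be alike except at 1 selected locus and the stretches that came with it. No uninfested leaves at 4 h or 8 h were analysed here and the hour of day of sampling was not given in the sources used here, so time since infestation, hour of day and leaf age cannot be told apart. The labels do not say whether a library came from 1 plant or several, so the p-values measure the spread between these libraries.

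The soybean aphid feeds on phloem sap through a fine stylet and injects saliva as it probes. Leaves answer such feeding over hours with changes in the transcripts of hormone, defence and cell-wall genes, and many leaf transcripts also rise and fall with the time of day whether or not an insect is present. Rag2 is a locus of resistance to this aphid. The deposited names, such as Glyma11g35270.1, are soybean gene models. The letter g splits the chromosome from the locus number, which orders models along it. The table pairs no name with a gene symbol and 0 of its 66210 models matched the RefSeq gene table used here, so the function of the models, and markers of leaf or of other tissues, are not given.

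The libraries held 9607642 to 17725967 reads in gene models at 8 h and 9957702 to 25994150 at 4 h. Reads outside gene models made up 3.33% to 4.87% of all reads at 8 h and 3.80% to 4.53% at 4 h, so the times overlapped in this measure. Replicates of a line correlated at 0.932 to 0.972 in log2 level across the 37614 models tested. The first principal component of the 8 libraries, with 47.4% of the variance, did not separate the times: replicate 2 of BC at 8 h and replicate 1 of BC at 4 h lay at 98.8 and 86.0 on it, and the other 6 libraries lay between -65.5 and 16.6. The second component, with 17.1% of the variance, did, with the 8 h libraries between -42.6 and -12.9 and the 4 h libraries between 23.3 and 45.9. Results are therefore also given without both of these BC libraries.

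Between 4 h and 8 h more leaf transcripts fell than rose. Of the 37614 gene models tested, 373 (0.992%) differed between the times with line as a covariate (edgeR quasi-likelihood test, Benjamini-Hochberg adjusted p below 0.05). The 8 h level was higher in 81 models (0.215%) and lower in 292 (0.776%), so 78.3% of the calls were falls. The median log2 fold change of 8 h over 4 h was 1.91 among the models that rose and -1.51 among those that fell, against -0.0017 over all models tested. The interquartile range of the log2 fold change was 1.07 to 2.96 among the rises and -2.02 to -1.16 among the falls. Beyond 8-fold, a log2 change above 3 in size, there were 19 rises and 17 falls, whereas beyond 2-fold there were 62 rises and 254 falls.

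**Figure D1:**
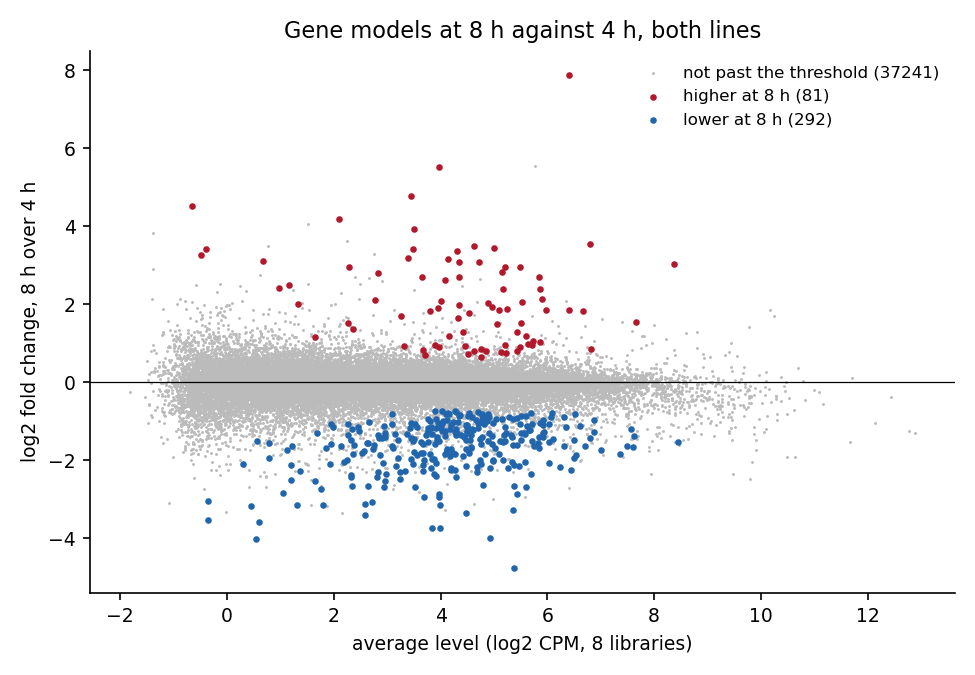
Each point is 1 of the 37614 gene models tested, with its average level over the 8 libraries (log2 CPM) on the horizontal axis and its log2 fold change of 8 h over 4 h on the vertical axis. The 81 models higher at 8 h reach a log2 fold change of 7.86, while the 292 lower ones reach -4.77 and outnumber them.

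For 80 of the 81 rises the 4 libraries at 8 h all lay above the 4 at 4 h, and for 289 of the 292 falls they all lay below. Over all models tested such a separation was seen upward in 900 (2.39%) and downward in 1232 (3.28%). The called models were not confined to rare transcripts: their median average level was 4.29 in log2 CPM (read counts scaled to a common library size), against 3.42 over all models tested. Together the 81 rising models took 0.411% to 0.539% of the reads in gene models in the 8 h libraries and 0.110% to 0.140% in the 4 h libraries. The 292 falling models took 0.439% to 0.506% at 8 h and 1.01% to 1.39% at 4 h. These shares follow from the choice of the models and carry no test.

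The number of calls depended on single libraries. It was 77 without replicate 2 of W at 8 h, 140 without replicate 1 of W at 4 h, 182 without replicate 1 of W at 8 h, 202 without replicate 2 of BC at 8 h and 227 without replicate 1 of BC at 4 h. Without replicate 2 of W at 8 h the share of falls was 59.7%. Without both BC libraries that lay apart, 208 models were called (59 higher and 149 lower at 8 h), of which 182 were among the 373. Of the 373 models, 75 (29 rises and 46 falls) were called in each of 17 alternative fits, and 0 of the 373 changed sign in any of them. For 80 of the rises and 289 of the falls the libraries of the 2 times did not overlap, so a change of sign was hardly possible.

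The largest rise was that of Glyma11g35270.1 on chromosome 11. It was at 183 and 143 CPM in W and 196 and 119 CPM in BC at 8 h, against 0.442 and 0.488 CPM in W and 1.34 and 0.517 CPM in BC at 4 h. All 4 libraries at 8 h thus exceeded all 4 at 4 h. Its log2 fold change was 7.86 (standard error 0.41, edgeR adjusted p = 2.68e-04). The other times were uneven, with 5.52 ± 6.87 CPM at 0 h, 4.42 ± 4.88 CPM at 24 h and 2.61 ± 2.38 CPM at 48 h (SD, n = 4 each). Single libraries at 0 h ranged between 0.251 and 14.7 CPM. At 24 h the lines stood apart, with means of 0.243 CPM in W and 8.60 CPM in BC.

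Glyma17g36060.1 on chromosome 17 was at 31.5 and 29.7 CPM in W and 24.1 and 30.7 CPM in BC at 8 h, against 0.442 and 0.662 CPM in W and 0.672 and 0.827 CPM in BC at 4 h. Both lines thus stood at nearly the same level at each time. The log2 fold change was 5.50 (standard error 0.21, edgeR adjusted p = 5.46e-05). Glyma14g09120.1 on chromosome 14 was at 19.1 and 15.6 CPM in W and 15.3 and 29.7 CPM in BC at 8 h, against 0.707 and 0.453 CPM in W and 1.04 and 0.723 CPM in BC at 4 h. Its log2 fold change was 4.76 ± 0.29 (standard error; edgeR adjusted p = 5.20e-04).

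Glyma18g03130.1 averaged 7.66 ± 2.61 CPM at 8 h and 0.416 ± 0.0777 CPM at 4 h (SD, n = 4 each), and its log2 fold change was 4.18 (edgeR adjusted p = 0.00200). In Glyma08g45150.1 the level averaged 195 ± 22.4 CPM at 8 h and 16.9 ± 3.18 CPM at 4 h, and Glyma12g06410.1 averaged 42.8 ± 14.6 and 3.71 ± 0.313 CPM (SD, n = 4 each). Their log2 fold changes were 3.54 and 3.50 (edgeR adjusted p = 4.44e-04 and 5.95e-04). These 6 models were called in each of the 17 alternative fits. Among the 10 largest rises, the calls of the other 4 were less firm. Glyma20g03910.1 averaged 20.4 ± 13.3 CPM at 8 h and 1.34 ± 1.18 CPM at 4 h, Glyma14g02970.1 averaged 55.2 ± 22.1 and 5.32 ± 3.86 CPM, and Glyma06g41520.1 averaged 19.6 ± 11.3 and 1.79 ± 0.613 CPM (SD, n = 4 each; edgeR adjusted p = 0.0173, 0.0286 and 0.0157). They lost their call in 6, 9 and 6 of the 17 alternative fits. Glyma16g32060.1 had 62 reads over the 4 libraries at 8 h and 3 over the 4 at 4 h, a ratio of 25.1 with an exact 95% counting interval of 8.20 to 125, which covers counting error only. Its edgeR adjusted p was 0.0173, and the call was lost in 7 of the alternative fits.

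**Figure D2:**
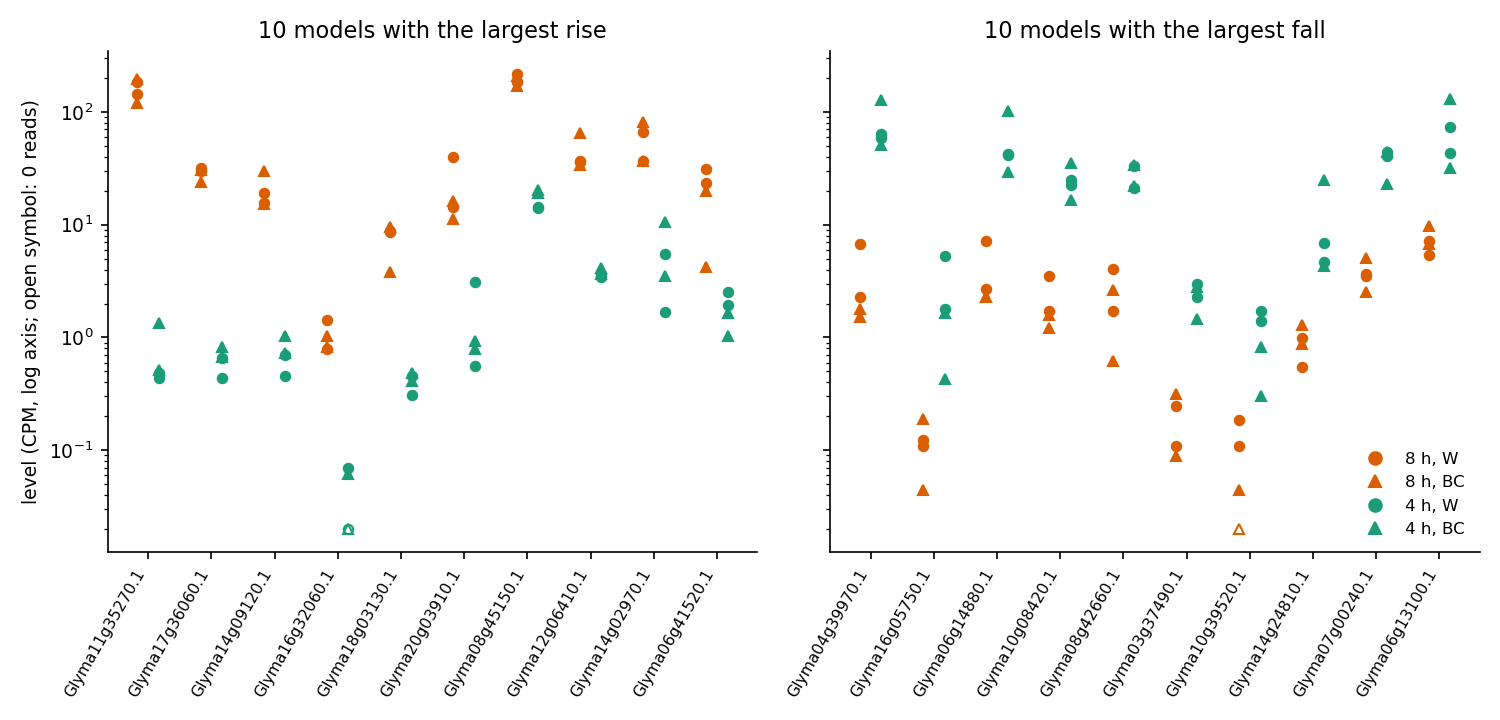
Level of the 10 gene models with the largest rise and the 10 with the largest fall in each of the 8 libraries (CPM, log axis), 8 h to the left of 4 h within each model, circles for W and triangles for BC, with open symbols for libraries with 0 reads. In each of the 20 models the 4 symbols at 8 h lie wholly on one side of the 4 at 4 h.

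The largest fall was that of Glyma04g39970.1 on chromosome 4. It was at 6.70 and 2.27 CPM in W and 1.51 and 1.78 CPM in BC at 8 h, against 63.8 and 58.8 CPM in W and 127 and 50.6 CPM in BC at 4 h. The groups did not overlap, and the highest library at 8 h was replicate 1 of W. The log2 fold change was -4.77 (standard error 0.57, edgeR adjusted p = 0.00965), and the call was lost in 1 of the 17 alternative fits. Glyma10g08420.1 on chromosome 10 was at 3.51 and 1.72 CPM in W and 1.58 and 1.20 CPM in BC at 8 h, against 22.6 and 24.8 CPM in W and 34.9 and 16.4 CPM in BC at 4 h. It was called in each alternative fit, with a log2 fold change of -3.73 (standard error 0.36, edgeR adjusted p = 0.00327).

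Glyma07g00240.1 on chromosome 7 was at 3.51 and 3.68 CPM in W and 5.05 and 2.54 CPM in BC at 8 h, against 44.4 and 40.7 CPM in W and 44.1 and 22.9 CPM in BC at 4 h. Its fall was about as large in each line, with a log2 fold change of -3.36 over both (standard error 0.28, edgeR adjusted p = 0.00190), and it too was called in each alternative fit. Glyma03g37490.1 on chromosome 3 was at 0.110 and 0.245 CPM in W and 0.315 and 0.0890 CPM in BC at 8 h, against 2.30 and 2.96 CPM in W and 1.47 and 2.79 CPM in BC at 4 h. Its log2 fold change was -3.57 ± 0.45 (standard error; edgeR adjusted p = 0.00933), and the call was lost in 1 alternative fit.

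The other 6 of the 10 largest falls had log2 fold changes between -4.02 and -3.28 and edgeR adjusted p-values between 0.0114 and 0.0464. Glyma06g14880.1 averaged 3.59 ± 2.37 CPM at 8 h and 53.5 ± 32.3 CPM at 4 h, Glyma06g13100.1 averaged 7.23 ± 1.86 and 69.7 ± 44.5 CPM, and Glyma08g42660.1 averaged 2.26 ± 1.46 and 27.6 ± 6.91 CPM (SD, n = 4 each). Glyma14g24810.1 averaged 0.928 ± 0.305 CPM at 8 h and 10.1 ± 9.74 CPM at 4 h, where replicate 1 of BC alone reached 24.6 CPM. Glyma16g05750.1 had 7 reads at 8 h and 193 at 4 h over the 4 libraries, and Glyma10g39520.1 had 5 and 92. The last 3 models lost their call in 10, 11 and 10 of the 17 alternative fits and the 3 before them in 5, 4 and 2.

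Apart from Glyma08g45150.1, the called models with the highest CPM, which is not corrected for gene length, changed by less than the 20 models above. Of those that rose, Glyma18g07520.1 came first in CPM. It was at 538 and 693 CPM in W and 564 and 443 CPM in BC at 8 h, against 49.0 and 62.9 CPM in W and 106 and 60.9 CPM in BC at 4 h. Its log2 fold change was 3.02 ± 0.32 (standard error; edgeR adjusted p = 0.00475). Glyma18g20600.1 averaged 151 ± 18.0 CPM at 8 h and 42.3 ± 6.51 CPM at 4 h (SD, n = 4 each; edgeR adjusted p = 0.00374), and both were called in each alternative fit. Glyma16g05350.1 averaged 285 ± 38.9 CPM at 8 h and 97.1 ± 25.8 CPM at 4 h, and Glyma08g22350.1 averaged 139 ± 22.0 and 75.7 ± 8.08 CPM (SD, n = 4 each; edgeR adjusted p = 0.0323 and 0.0434). Their calls were lost in 10 and 13 of the 17 alternative fits.

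Of those that fell, Glyma18g43000.1 was at 189 and 169 CPM in W and 151 and 171 CPM in BC at 8 h, against 419 and 581 CPM in W and 549 and 418 CPM in BC at 4 h. Its log2 fold change was -1.54 ± 0.23 (standard error; edgeR adjusted p = 0.0203). The 8 h libraries lay close together and well below each of the 4 h libraries. Glyma17g08310.1 averaged 104 ± 8.11 CPM at 8 h and 270 ± 34.7 CPM at 4 h, Glyma07g05530.1 averaged 89.3 ± 11.5 and 280 ± 43.4 CPM, Glyma12g06910.1 averaged 109 ± 19.7 and 248 ± 57.9 CPM, and Glyma14g07270.1 averaged 83.2 ± 19.7 and 257 ± 77.7 CPM (SD, n = 4 each). Their log2 fold changes lay between -1.65 and -1.19, with edgeR adjusted p-values between 0.0102 and 0.0388. Across these 5 models the call was lost in 4 to 12 of the 17 alternative fits.

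A further question was whether the change differed between the lines. With edgeR, 0 of 37614 models passed the test of the difference (0% called), 744 (1.98%) had an unadjusted p below 0.05, and DESeq2 called 1. An unadjusted limit of 0.05 would pass about 5% of models if none differed, which is more than the share seen. Of the 373 models called over both lines, 5 had an unadjusted p below 0.05 in the edgeR test of the difference. Over the 373, the line differences in log2 fold change had a median size of 0.23 and a median standard error of 0.42, so that a moderate difference in a single model would not have been detectable here. All 373 moved the same way in W and in BC, which their choice on the sum of both lines favours. Over all models tested, 56.4% moved the same way, and the changes in W and BC correlated at 0.307 across models, which are not independent of each other.

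Within single lines, with 2 libraries a side, edgeR called 11 models in W (10 higher and 1 lower at 8 h, 0.0292% of those tested) and 7 in BC (all higher, 0.0186%). All 7 were among the 11, and all 11 were among the 373. Falls outnumbered rises in the 3 alternative fits that called more models in both lines. Limma voom with library weights called 82 within W (32 higher and 50 lower at 8 h) and 0 within BC. Within W, DESeq2 called 353 (78 higher and 275 lower at 8 h), the fit without the low-count filter 115 (35 higher and 80 lower) and the fit of all 20 libraries 124 (35 higher and 89 lower). Within BC these fits called 375 (79 higher and 296 lower), 94 (31 higher and 63 lower) and 128 (34 higher and 94 lower). The count within W was 0 without replicate 1 of W at 4 h or without either replicate of W at 8 h, 1 without replicate 2 of W at 4 h and 6 without replicate 2 of BC at 4 h. Within BC it was 0 without replicate 1 of BC at 4 h or without either replicate of W at 8 h, 1 without replicate 2 of BC at 4 h and 3 without replicate 2 of BC at 8 h.

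**Figure D3:**
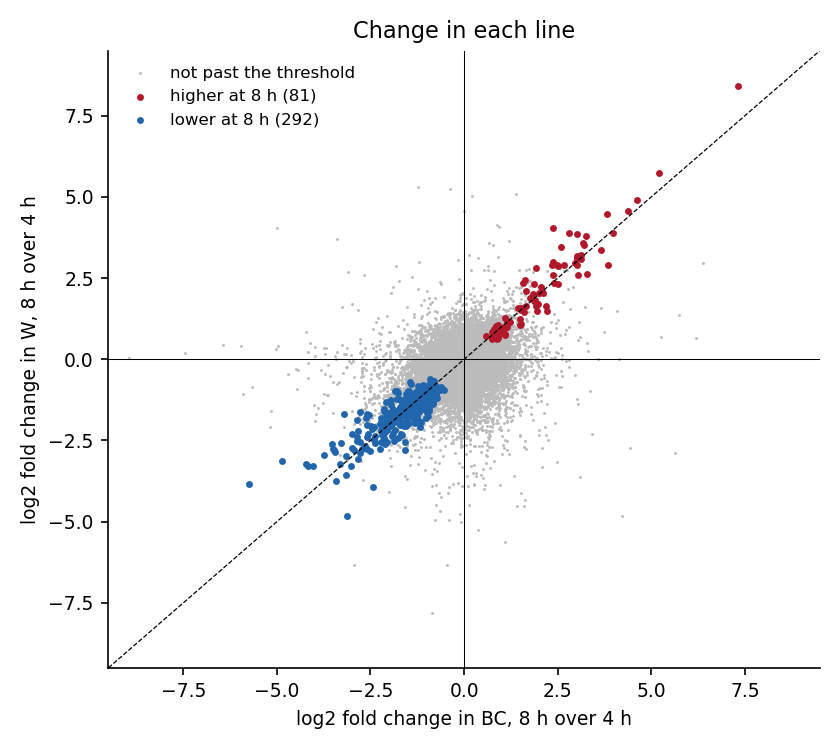
Log2 fold change of 8 h over 4 h in BC (horizontal axis) and in W (vertical axis) for each of the 37614 models tested, with the 81 models higher and the 292 lower at 8 h over both lines in colour and the line of equal change dashed. The coloured points lie in the quadrants of like sign and scatter about the dashed line, and 0 of 37614 models passed the edgeR test of the difference between the lines.

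For Glyma11g35270.1 the log2 fold change was 7.31 in BC (standard error 0.51) and 8.42 in W (standard error 0.53), a difference of BC minus W of -1.11 (standard error 0.63) that did not pass. For Glyma17g36060.1 it was 5.20 in BC and 5.75 in W, and for Glyma08g45150.1 it was 3.27 in BC and 3.81 in W, with differences of -0.55 (standard error 0.39) and -0.54 (standard error 0.34). Among the 20 models with the largest changes, Glyma04g39970.1 had the widest gap, -5.75 in BC and -3.83 in W (difference -1.92, standard error 0.81).

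The 5 models with the smallest p in the test of the difference were not past the threshold in edgeR and are given as values. Glyma11g29880.1 was at 0.946 and 1.16 CPM in BC at 8 h, against 2.08 and 1.76 CPM in BC at 4 h, and at 4.06 and 4.97 CPM in W at 8 h, against 1.46 and 1.19 CPM in W at 4 h. The lines thus moved in opposite directions without overlap between times. Glyma13g31650.1 had log2 fold changes of -0.52 in BC and 1.17 in W, Glyma05g36210.1 of 0.24 and -1.89, and Glyma07g38540.1 of 1.35 and 0.01. Glyma08g22660.1 was at 24.4 and 64.5 CPM in BC at 8 h, against 4.58 and 3.72 CPM in BC at 4 h, and at 1.32 and 3.07 CPM in W at 8 h, against 3.84 and 18.5 CPM in W at 4 h. It was the model that DESeq2 called, with a difference of 5.73 and an adjusted p of 4.11e-04. In edgeR the difference was 5.71 (standard error 1.17), 4.17 without replicate 2 of W at 4 h, 4.84 without replicate 2 of BC at 8 h, 6.40 without replicate 1 of W at 4 h and 6.47 without replicate 2 of W at 8 h.

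The 0, 24 and 48 h libraries took no part in choosing the 373 models, and they place the 2 infested times in the longer series. The excursion at 8 h stood alone for most of them. Of the 81 rising models, 78 had their highest mean of the 5 times at 8 h, against 24.1% of all models tested, and in 58 the 8 h mean was at least 2-fold above each of the other 4 (0.542% of all models tested). Of the 292 falling models, 275 had their lowest mean at 8 h (20.6% of all models), and in 165 the 8 h mean was at most 0.5 times each of the others (1.00% of all models). The 8 h and 4 h values in these counts are those the models were chosen on. In the lines separately, 8 h was the highest time for 79 of the 81 rising models in BC and 78 in W, and the lowest time for 271 of the 292 falling models in BC and 263 in W. It was so in both lines for 77 and 255 of them.

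The median ratio to the 4 h level sets the other times beside it. On the scale of log2(mean CPM + 0.5), for the rising models the median log2 ratio was -0.28 before infestation (0 h), 1.82 at 8 h, and -0.44 and -0.36 at 24 and 48 h. For the falling models the same median was -0.19 before infestation, -1.41 at 8 h, and -0.06 and 0.01 at 24 and 48 h. The median of the rising models thus lay somewhat below the 4 h level at 24 and 48 h, and that of the falling ones near it.

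**Figure D4:**
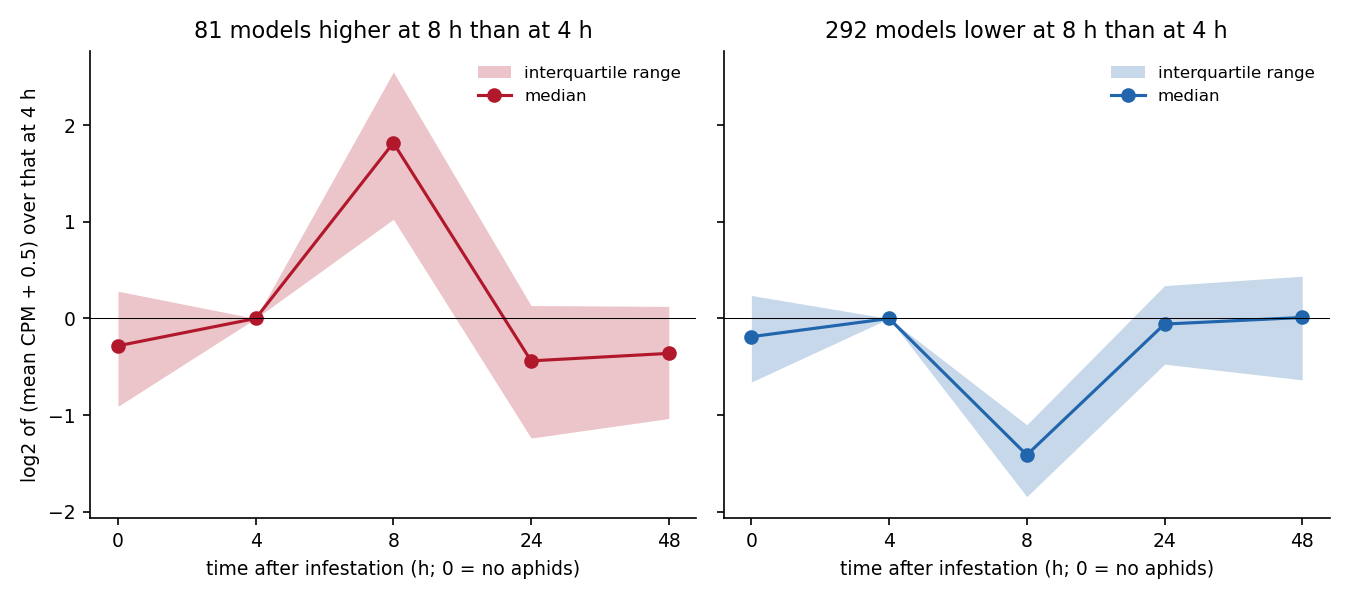
Log2 ratio of the mean level at each time to that at 4 h (mean CPM + 0.5, 4 libraries a time) for the 81 models higher and the 292 lower at 8 h, with the median as a line and the interquartile range as a band. The medians depart from 0 mainly at 8 h, to 1.82 and -1.41, and lie between -0.44 and 0.01 at 0, 24 and 48 h.

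The 4 h level itself differed between models. Among the rising ones, 40 of 81 (49.4%) had a 4 h mean within 2-fold of the means at 0, 24 and 48 h, against 89.1% of all models tested, and 19 (23.5%) were already at least 2-fold above each of these at 4 h, against 1.29% of all models tested. Glyma14g02970.1 was of this kind, at 2.28, 5.32, 55.2, 1.26 and 1.57 CPM at 0, 4, 8, 24 and 48 h. In 2 of the rising models (2.47%, against 0.471% of all models tested) the 4 h mean was at most 0.5 times each of the means at 0, 24 and 48 h. Glyma11g35270.1 was among them in the means over both lines. It was not so in W alone, where the 24 h mean was 0.243 CPM, against 0.442 and 0.488 CPM at 4 h.

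Among the falling models, 212 of 292 (72.6%) had a 4 h mean within 2-fold of those at 0, 24 and 48 h, against the same 89.1% of all models tested. In 24 (8.22%, against 1.29% of all models tested) the 4 h mean was at least 2-fold above each of those at 0, 24 and 48 h. The 4 h values took part in the choice of the models, which favours this. In these 24 the fall to 8 h came off a peak at 4 h. The largest fall, Glyma04g39970.1, was one of them, at 13.2, 75.1, 3.06, 10.0 and 10.9 CPM at 0, 4, 8, 24 and 48 h. Glyma06g14880.1 ran alike, at 8.34, 53.5, 3.59, 9.81 and 10.5 CPM. In 12 (4.11%, against 0.471% of all models tested) the 4 h mean was at most 0.5 times each of the means at 0, 24 and 48 h and the 8 h mean was lower again. Glyma03g37490.1 was one of these, at 8.04, 2.38, 0.190, 9.10 and 6.88 CPM. Without meeting this limit, Glyma14g07270.1 likewise had a lower mean at 4 h and a lower one again at 8 h. Its means were 438, 257, 83.2, 540 and 517 CPM. Its libraries at 0 h (293 to 575 CPM) and at 4 h (177 to 354 CPM) overlapped, and the step between them was not tested.

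**Figure D5:**
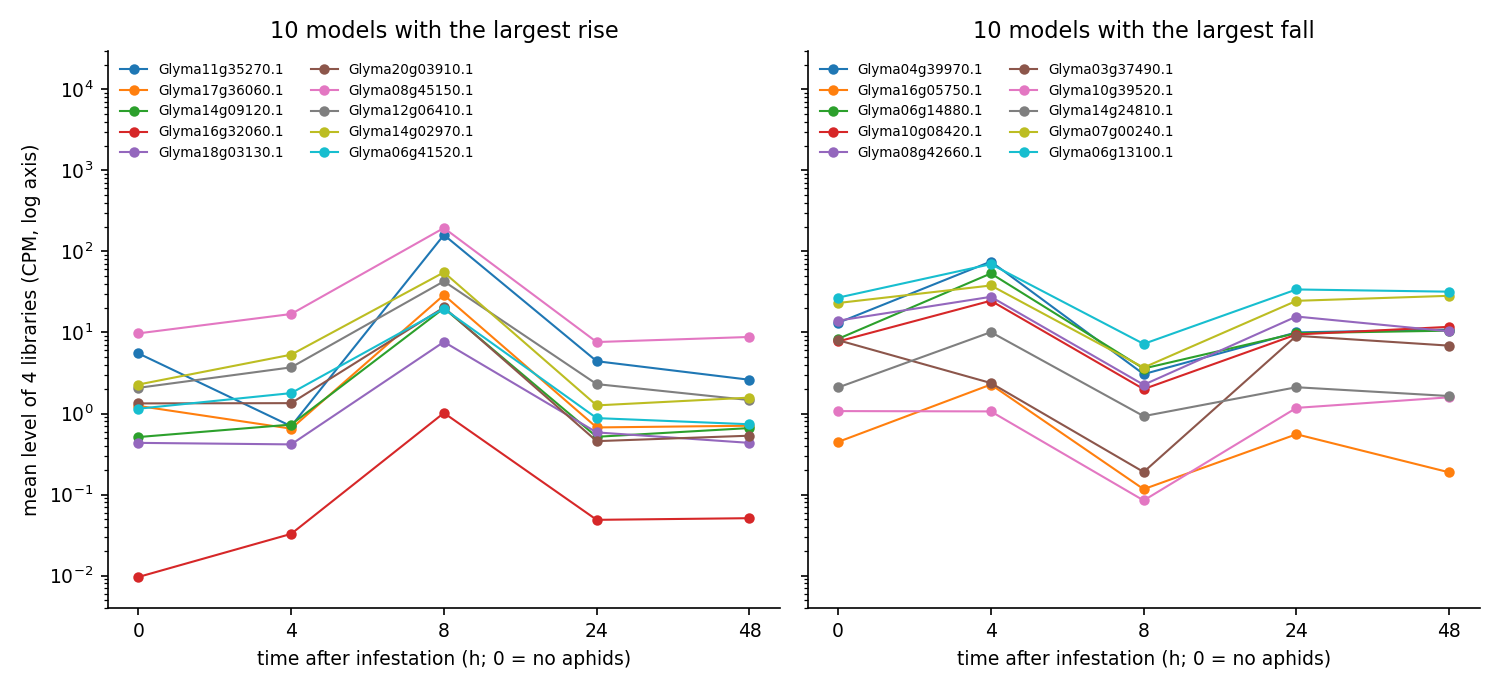
Mean level over the 4 libraries of each time (CPM, log axis) of the 10 models with the largest rise and the 10 with the largest fall from 4 h to 8 h, at 0, 4, 8, 24 and 48 h. Each rising model is highest at 8 h and each falling one is lowest there, and Glyma03g37490.1 is already below its 0 h level at 4 h while Glyma04g39970.1 peaks at 4 h.

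The called models came from every chromosome. Of the 373, 372 lay on the 20 chromosomes, in shares between 0.612% of tested models on chromosome 15 and 1.83% on chromosome 14, which held 8 rises and 20 falls. Chromosome 13, to which Rag2 has been mapped, had 22 calls, or 0.847%. Chromosome 8, with the most tested models, 2610, held 10 rises and 19 falls, and chromosome 3, with 1681 tested models, had 0 rises and 11 falls. No test was made of these shares.

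Some calls were neighbours. Along the chromosomes, 23 of the 373 models stood directly beside another tested model called in the same direction, in 10 pairs and 1 run of 3. Over all models tested, 0.776% were called lower at 8 h and 0.215% higher. How many such neighbours these shares alone would give was not worked out. Without a stated strand setting of the counting, reads of overlapping neighbours cannot be told apart. The run of 3 lay on chromosome 11 at locus numbers 11080 to 11100. Glyma11g11080.1 was at 9.33 and 4.78 CPM in W and 4.23 and 5.25 CPM in BC at 8 h, against 37.6 and 30.0 CPM in W and 33.9 and 22.2 CPM in BC at 4 h. Glyma11g11090.1 averaged 7.39 ± 1.90 CPM at 8 h and 25.1 ± 6.04 CPM at 4 h, and Glyma11g11100.1 averaged 4.47 ± 0.927 and 9.76 ± 0.867 CPM (SD, n = 4 each). The log2 fold changes along the run were -2.43, -1.77 and -1.13 (edgeR adjusted p = 0.00370, 0.00141 and 0.0286), and the last of the 3 lost its call in 8 of the 17 alternative fits.

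Of the pairs, 2 rose and 8 fell. Both rising pairs were chosen for description after their values were seen. On chromosome 11, Glyma11g35280.1 stood beside the model with the largest rise and itself rose less, by a log2 fold change of 0.79 (standard error 0.11, edgeR adjusted p = 0.0127), to a mean of 34.5 CPM at 8 h, against 19.8 CPM at 4 h. On chromosome 19, Glyma19g13270.1 had means of 1.07 CPM at 8 h and 0.0980 CPM at 4 h. Glyma19g13280.1 had means of 34.7 CPM at 8 h and 4.01 CPM at 4 h. Their log2 fold changes were 3.27 and 3.09 (edgeR adjusted p = 0.0140 and 0.00190). The 4 h level of Glyma19g13270.1 rests on very few reads, so the size of its rise is uncertain.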

How the data were processed

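Leaf RNA was extracted with Trizol and made into barcoded Illumina mRNA libraries, per the labels' protocols. The authors deposited raw read counts per gene model, 1 column per library, not normalized. The tools named are TopHat 1.4.1, Cuffdiff 1.3.0, HTSeq 0.5.3 and edgeR, per the submitters' processing notes. Strand setting, annotation and genome build are not given in the sources used here. Another 5 rows, which hold totals and no gene, were dropped. Reads outside models were at most 4.87% and ambiguous reads at most 1.79% of a library compared. The deposited total of multiply aligned reads is 0, so values of near-identical copies are uncertain.

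The 8 libraries were filtered with filterByExpr by line and time, TMM-scaled, and fitted with terms for line and time in edgeR 4.0.16 under R 4.3.3, whose robust two-sided quasi-likelihood test had 5 residual degrees of freedom. Differences between lines and changes within a line came from a fit of 4 groups of line by time (4 residual degrees of freedom). Each standard error is the log2 fold change over the root of F. The biological coefficient of variation was 0.285. Levels are CPM with library sizes scaled by TMM over all 20 libraries, not corrected for gene length. The test was checked on simulated counts, drawn independently for each model and library and without a line effect. That check therefore does not cover shifts shared by many models of a library. DESeq2 1.42.0 and limma 3.58.1 were among the alternatives.

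The models named were the 10 largest rises and falls among calls without overlap and with a mean of at least 1 CPM at either time, the 5 most highly counted calls in each direction, the 5 smallest p-values of the line difference and runs of 3 neighbours. The comparison, lists and rule were chosen with earlier results of these data known. Gene lists by function could not be used, since no model matched the annotation.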

Additional observations from a re-analysis of the deposited data

Results flagged for a closer look

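In the 74 groups of 4 libraries examined (each named model at 8 h and at 4 h), 10 had 1 library far from the other 3 relative to the group's range. The limit used flags about 5% of groups of 4 values drawn from 1 normal distribution. CPM values of models picked on their levels need not follow one, so the 10 groups cannot be set against that share. At 8 h, Glyma18g03130.1 was at 3.78 CPM in replicate 2 of BC (others 8.56 to 9.46), Glyma12g06410.1 at 64.6 CPM in replicate 1 of BC (others at most 36.8), and Glyma20g03910.1 at 40.1 CPM in replicate 1 of W (others 11.2 to 16.1). Replicate 1 of W was also the high library at 8 h for 2 models that fell, Glyma04g39970.1 at 6.70 CPM (others 1.51 to 2.27) and Glyma06g14880.1 at 7.13 CPM (others 2.27 to 2.70). At 4 h, replicate 1 of BC was high for Glyma11g35270.1 at 1.34 CPM (others 0.442 to 0.517) and for Glyma14g24810.1 at 24.6 CPM (others 4.34 to 6.83). Replicate 1 of W was high for Glyma20g03910.1 at 3.09 CPM (others 0.558 to 0.930), replicate 2 of BC was low for Glyma07g05530.1 at 216 CPM (others 297 to 307), and replicate 2 of W was high for Glyma08g22660.1 at 18.5 CPM (others 3.72 to 4.58). The 2 lines are mixed in these groups. The cause was not tested.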

How the results depend on the processing

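The count of 373 lay within 1.5 times under RLE scaling (368), without the low-count filter (468), without the line term (307), in the fit of all 20 libraries (550) and for changes beyond 2-fold (316). It was 234 with 4 groups of line by time, 1029 with DESeq2 (all 373 among them), 622 with library weights in limma voom, and 77 to 405 without single libraries. In the fit chosen after seeing the data, without both BC libraries that lay apart, it was 208. The cause of these shifts was not tested. Within W and BC the counts of 11 and 7 were 115 and 94 without the filter, 7 and 4 with RLE, 353 and 375 with DESeq2, 82 and 0 with library weights, 124 and 128 with all 20 libraries, 51 and 0 without both BC libraries, and 0 to 10 and 0 to 8 without single libraries. In fits without 1 library, and without both, a lone library is assumed to vary like the others. The difference between lines gave 0 models throughout except for 1 with DESeq2.

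Deviations of same-numbered replicates at 8 h and 4 h correlated at 0.41 in W and -0.42 in BC. With a single value for each line and opposite signs, they cannot settle whether the replicate number pairs the libraries. With the replicate number as a block the count was 281 (59 higher, 222 lower; 242 among the 373), 0 for the difference, and 0 within W and 0 within BC (2317 and 1780 at an unadjusted p below 0.05, edgeR). Of 619 values of named models under an alternative, 0 changed sign, 141 lost the call and 1 gained it. The largest rises and falls were named among calls without overlap, so their sign could hardly change. With 4 libraries a side, small changes and rare transcripts were not resolved.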
